A study of Mus musculus with 12 samples.

Results

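The 8 genes described here belong to the Notch pathway and were read from a table of normalized read counts that holds 23479 genes. They are the receptor genes Notch1 and Notch2, the nuclear partner Rbpj, and 5 Notch-responsive genes, Hes1, Heyl, Hey1, Dtx1 and Nrarp. Heyl was the starting point because its level was far lower with 4-OHT than with vehicle in cells carrying the TFEB fusion. The other 7 were added for their roles in the pathway, with results of these data known. The comparison that singled out Heyl is therefore given for all 8 as a description, with no test, and so are the comparisons that contain its TFEB 4-OHT libraries.

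The cells came from 1 Myc-driven B-cell lymphoma of a C57BL/6 mouse carrying the transgenes Eµ-Myc and Eµ-rtTA, both placed under the immunoglobulin heavy chain enhancer, and were kept in culture with IL-7. TFEB cells carried a retrovirus for puromycin resistance and for TFEB with Ser-211 changed to alanine, fused to ER-T2, an altered estrogen receptor domain of human origin. Vector cells carried the empty puromycin retrovirus, and all groups shared both Eµ transgenes and the puromycin selection. The 4 groups were TFEB cells with 4-OHT (4-hydroxytamoxifen, the ligand of ER-T2), TFEB cells with vehicle, vector cells with 4-OHT and vector cells with vehicle, each treated for 4 days and each with 3 libraries. The labels give 250 nM 4-OHT, whereas the series' design text has the same figure in ng/mL. All libraries go back to a single lymphoma, and nothing in the labels says whether replicates were separate transductions or cultures, so p-values measure the spread between these libraries, which may be technical. Where a gene is lower in such bulk RNA, fewer cells expressing it and less RNA per cell cannot be told apart.

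Notch receptors are cut by proteases after binding a ligand on a neighbouring cell, and the freed intracellular part enters the nucleus. There it joins RBPJ, which otherwise represses its targets with corepressors, and recruits Mastermind-like coactivators. Best known among the targets are the HES and HEY genes, which encode basic helix-loop-helix repressors, and Nrarp and Dtx1, whose products act back on Notch signalling. In lymphocytes NOTCH1 is known for directing progenitors to the T lineage and NOTCH2 for the formation of marginal zone B cells.

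The 250 bases before the RefSeq start sites (build GRCm38.p6) are shown for every member with an entry, as the stretches where pathway and TFEB-type motifs can be looked for, with motifs in capitals. Entries were matched for 5 of the 8 members, Notch1, Notch2, Rbpj, Dtx1 and Nrarp. The motifs were searched on both strands: TGGGAA, the core of the RBPJ site, CACGTG, an E-box read the same on both strands and bound by TFEB and MYC, and CACNAG, the N-box of HES proteins. No motif overlaps another in these windows.
Notch1, chr2:26503823-26504072, minus strand: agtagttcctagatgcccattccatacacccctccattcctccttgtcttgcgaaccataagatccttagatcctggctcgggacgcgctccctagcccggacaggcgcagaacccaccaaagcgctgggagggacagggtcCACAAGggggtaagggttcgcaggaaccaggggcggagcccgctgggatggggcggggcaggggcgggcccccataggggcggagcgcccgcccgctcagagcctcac
Notch2, chr3:98013288-98013537, plus strand: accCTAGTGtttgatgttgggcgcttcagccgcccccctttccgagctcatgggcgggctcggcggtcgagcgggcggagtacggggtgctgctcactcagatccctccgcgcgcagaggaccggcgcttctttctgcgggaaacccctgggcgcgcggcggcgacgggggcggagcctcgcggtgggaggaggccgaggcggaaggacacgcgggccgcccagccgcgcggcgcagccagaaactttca
Rbpj, the first of 2 start sites, chr5:53590096-53590345, plus strand: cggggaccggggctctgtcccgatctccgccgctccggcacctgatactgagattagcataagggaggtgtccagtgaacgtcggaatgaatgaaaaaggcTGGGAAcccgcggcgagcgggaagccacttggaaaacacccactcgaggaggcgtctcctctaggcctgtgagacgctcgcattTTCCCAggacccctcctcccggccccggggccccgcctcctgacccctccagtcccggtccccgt
Dtx1, chr5:120711670-120711919, minus strand: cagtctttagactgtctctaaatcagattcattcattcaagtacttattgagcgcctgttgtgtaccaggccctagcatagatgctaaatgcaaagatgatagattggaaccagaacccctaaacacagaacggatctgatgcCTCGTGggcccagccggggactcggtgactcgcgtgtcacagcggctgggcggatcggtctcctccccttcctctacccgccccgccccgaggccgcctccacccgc
Nrarp, chr2:25180508-25180757, plus strand: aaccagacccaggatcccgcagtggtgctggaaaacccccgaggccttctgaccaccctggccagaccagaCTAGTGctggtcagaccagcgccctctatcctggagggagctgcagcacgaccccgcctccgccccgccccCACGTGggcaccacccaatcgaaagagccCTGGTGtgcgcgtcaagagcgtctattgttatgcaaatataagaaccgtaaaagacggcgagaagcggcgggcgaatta
TGGGAA occurs in 21.6% of all 32851 windows of the same length, CACGTG in 6.02% and CACNAG in 36.7%. The Rbpj window holds TGGGAA from 149 to 144 bases before the start and again, on the opposite strand, from 65 to 60 bases before it. The Nrarp window holds the only CACGTG, from 108 to 103 bases before the start, and 2 copies of CACNAG on the opposite strand. The Notch1, Notch2 and Dtx1 windows each hold 1 copy of CACNAG and neither of the other motifs. These matches describe the letters of the windows and say nothing of binding.

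Libraries held 11849029 to 22109283 reads in genes. Tfeb reads checked the labels, at 665 ± 72.6 normalized counts (SD, n = 3) in TFEB cells with 4-OHT, 1676 ± 249 in TFEB cells with vehicle, 221 ± 23.4 in vector cells with 4-OHT and 243 ± 17.7 in vector cells with vehicle. In 3 libraries many silent genes had low counts, so that the median over all genes was 24.5 in TFEB 4-OHT library 2, 20.7 in TFEB vehicle library 3 and 20.2 in vector 4-OHT library 2, against 0 to 8.73 in the other 9. The B cell receptor gene Cd79a was read in every library, at 8469 to 9223 normalized counts in TFEB cells with 4-OHT and 6833 to 8996 in the other groups, whereas Dntt, a marker of early precursors, was at 0 in 5 libraries and at most 17.8 in the others. The summed level of 11 B cell precursor markers was 27420 to 29650 in TFEB cells with 4-OHT, against 49820 to 53000 with vehicle. Of 10 tested markers 8 were called lower and 1 higher. Cd79a, at 6833 to 8360 in TFEB cells with vehicle, was not among the 8 and does not stand for them. Markers of other cell types had smaller sums than those of B cell precursors. The sums were 230 to 380 for 5 macrophage genes in TFEB cells with 4-OHT, against 84.3 to 132 with vehicle. Cd68 was the 1 called higher of 3 tested. Sums of 6 pericyte and smooth muscle genes were 28.0 to 159 with 4-OHT, against 45.9 to 91.2 with vehicle, and those of 6 endothelial genes, mostly Pecam1, were 692 to 756, against 805 to 882. The part of these markers in the Notch results was not tested.

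Differences are in log2(normalized count + 1), fitted with limma to all 13111 genes that reached 10 in 3 or more libraries. A gene was called when its Benjamini-Hochberg adjusted p was under 0.05. In the comparison that chose Heyl, 4-OHT against vehicle in TFEB cells, 27.5% of tested genes were called, 13.7% higher and 13.9% lower. All 8 members passed the filter on low values, and the fit called 1 of them higher and 4 lower. The groups did not overlap in 5 members, against 38.0% of tested genes. Since Heyl was chosen on this comparison, nothing is read from these member counts.

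Of the receptors, Notch1 was lower and Notch2 higher in TFEB cells with 4-OHT than in any other group. Notch1 (chr2:26457903-26516663, mm10) had 741, 678 and 797 normalized counts in TFEB cells with 4-OHT, against 1220, 1150 and 843 in TFEB cells with vehicle. Vector cells had 1024, 1166 and 1141 with 4-OHT, against 1267, 1268 and 1370 with vehicle. The 3 TFEB 4-OHT libraries lay below the other 9, although TFEB vehicle library 3 was close to them. The log2 difference between 4-OHT and vehicle was -0.52 ± 0.12 (SE) in TFEB cells and -0.23 ± 0.12 in vector cells.

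Notch2 (chr3:98013527-98150361, mm10) had 1439, 1333 and 1311 normalized counts in TFEB cells with 4-OHT, against 1002, 777 and 928 in TFEB cells with vehicle. Vector cells had 923, 791 and 1143 with 4-OHT, against 1055, 798 and 954 with vehicle. Every TFEB 4-OHT library was above the other 9, which overlapped one another. The log2 difference was 0.60 ± 0.13 (SE) in TFEB cells and 0.02 ± 0.13 in vector cells. The other receptor genes, Notch3 and Notch4, reached 59.4 and 81.3 in TFEB 4-OHT library 2, where silent genes had counts, and no more than 24.9 and 23.6 in any library of the other groups.

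Rbpj (chr5:53466152-53657362, mm10), which encodes the DNA-binding partner of all Notch receptors, had 1119, 1282 and 1030 normalized counts in TFEB cells with 4-OHT, against 1350, 1565 and 1497 with vehicle. Vector cells had 1575, 1428 and 1414 with 4-OHT, against 1388, 1261 and 1393 with vehicle. The TFEB 4-OHT libraries were below those of TFEB cells with vehicle, but the highest of them passed the lowest vector vehicle library. The log2 difference was -0.37 ± 0.10 (SE) in TFEB cells and 0.13 ± 0.10 in vector cells.

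**Figure D1:**
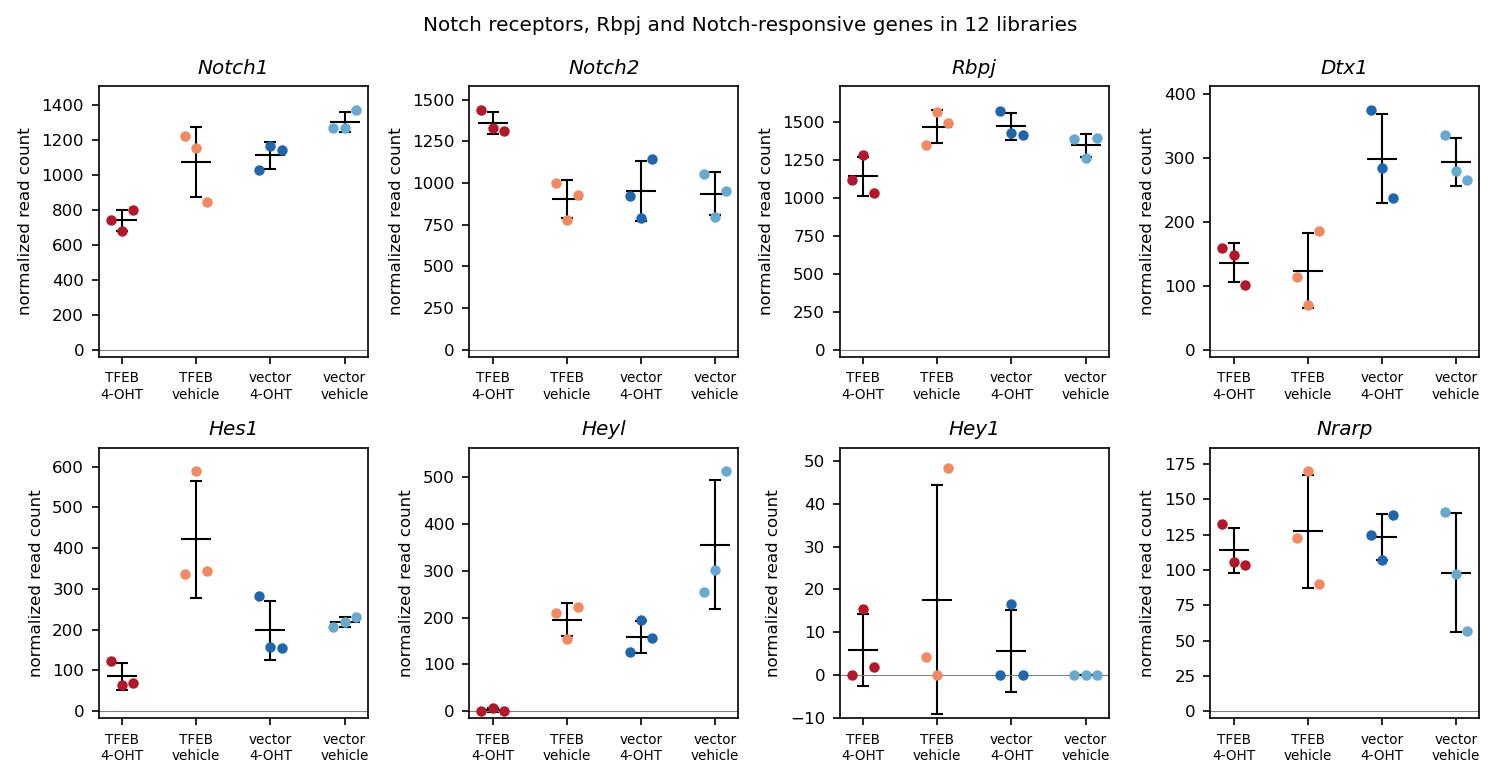
Normalized read counts (y axis, starting below 0, with a line at 0) of the 8 members in each of 12 libraries, by group (x axis). Points are libraries, and the bar and whiskers are the mean and SD of 3. Heyl is at 0 to 7.75 in TFEB cells with 4-OHT and at 127 or more in all other libraries, Hes1 is also lowest there, Notch2 is highest there, and Dtx1 separates TFEB cells from vector cells in both treatments.

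Both detected HES and HEY repressor genes of the 3 members in this family were lower in TFEB cells with 4-OHT. Hes6, a gene of this family that is not a member, was not called between 4-OHT and vehicle in TFEB cells (log2 0.105 ± 0.138 SE, adjusted p = 0.672, limma). Heyl (chr4:123233556-123249875, mm10) had 0, 7.75 and 0.97 normalized counts, or 0, 6 and 1 reads, in TFEB cells with 4-OHT. It had 210, 155 and 223 normalized counts in TFEB cells with vehicle, 127, 195 and 156 in vector cells with 4-OHT and 254, 302 and 512 in vector cells with vehicle. The 6 reads came from the library with the most scattered counts. Over 3 libraries there were 7 reads in TFEB cells with 4-OHT, against 551 in TFEB cells with vehicle, and the log2 difference of 4-OHT against vehicle was -6.23 ± 0.53 (SE). That value depends on the pseudocount, and was -4.03 with a pseudocount of 10 and -7.11 without TFEB 4-OHT library 2. In vector cells the log2 difference was -1.11 ± 0.53.

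Hes1 (chr16:30064384-30067796, mm10), a HES gene commonly used as a readout of Notch activity, had 123, 64.5 and 67.9 normalized counts in TFEB cells with 4-OHT, against 336, 588 and 343 with vehicle. Vector cells had 282, 157 and 156 with 4-OHT, against 206, 218 and 231 with vehicle. The TFEB 4-OHT libraries were the 3 lowest of the 12 and the TFEB vehicle libraries the 3 highest. The log2 difference was -2.31 ± 0.28 (SE) in TFEB cells and -0.20 ± 0.28 in vector cells.

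Hey1 was close to silent. It had 0, 15.5 and 1.94 normalized counts in TFEB cells with 4-OHT, 4.28, 0 and 48.4 in TFEB cells with vehicle, 0, 16.6 and 0 in vector cells with 4-OHT, and 0 in all vector vehicle libraries. The value above 10 in each of the first 3 groups stood in the library with scattered counts, and these carried Hey1 through the filter. No difference between groups was detectable at this depth. Over the 3 vector vehicle libraries a count of 0 allows up to 3 reads in each, which is 2.21, 2.36 and 2.61 normalized counts.

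Dtx1 (chr5:120680202-120711927, mm10), which encodes the ubiquitin ligase Deltex1, was lower in TFEB than in vector cells with either treatment. It had 159, 148 and 102 normalized counts in TFEB cells with 4-OHT and 113, 70.4 and 187 in TFEB cells with vehicle. Vector cells had 376, 285 and 238 with 4-OHT and 337, 279 and 266 with vehicle. All 6 TFEB libraries were below all 6 vector libraries, and within each line the treatments overlapped. The log2 difference between 4-OHT and vehicle was 0.23 ± 0.29 (SE) in TFEB cells and 0.01 ± 0.29 in vector cells.

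Nrarp (chr2:25180758-25183339, mm10), a feedback inhibitor that binds the Notch nuclear complex, overlapped between all groups. It had 132, 106 and 104 normalized counts in TFEB cells with 4-OHT, 122, 170 and 89.8 in TFEB cells with vehicle, 124, 107 and 139 in vector cells with 4-OHT, and 141, 96.8 and 56.6 in vector cells with vehicle. The log2 difference between 4-OHT and vehicle was -0.12 ± 0.35 (SE) in TFEB cells and 0.41 ± 0.35 in vector cells.

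Levels of different genes were set side by side after division by the summed exon length of each gene in GENCODE vM21, which need not be the annotation the authors counted. In TFEB cells with 4-OHT, Notch2 came first at 126 ± 6.34 normalized counts per kilobase (SD, n = 3), followed by Rbpj at 89.7 ± 10 and Notch1 at 51.9 ± 4.21. Nrarp at 44.2 ± 6.17, Hes1 at 41.8 ± 16 and Dtx1 at 25.9 ± 5.79 came next, and Hey1 at 1.78 ± 2.58 and Heyl at 0.568 ± 0.825 were last. In that group the SD ranges of Notch1 and Nrarp, of Nrarp and Hes1, of Hes1 and Dtx1, and of Hey1 and Heyl overlapped.

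In TFEB cells with vehicle the order began with Hes1 at 207 ± 70.5 normalized counts per kilobase, then Rbpj at 115 ± 8.66, Notch2 at 83.7 ± 10.6 and Notch1 at 75.3 ± 14.1. Nrarp at 49.3 ± 15.5, Heyl at 38.3 ± 7.06, Dtx1 at 23.4 ± 11.2 and Hey1 at 5.38 ± 8.2 followed, and from Notch2 on each overlapped the next. In vector cells Heyl was at 31.1 ± 6.66 with 4-OHT and 69.6 ± 26.9 with vehicle, and Hes1 at 97.3 ± 35.8 and 107 ± 5.97. Rbpj led with 4-OHT at 116 ± 6.99, where it overlapped Hes1, and Hes1 led with vehicle, where it overlapped Rbpj at 106 ± 5.89. Hes1 thus had rank 1 or 2 in 3 groups and rank 5 in TFEB cells with 4-OHT.

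The comparison of 4-OHT with vehicle in vector cells shares no library with the one that chose Heyl, and all 8 members were tested in it. None was called by limma, against 0.0153% of all tested genes. At an unadjusted p under 0.05 there was 1, Heyl, with a log2 difference of -1.11 ± 0.53 (SE), a 95% interval of -2.19 to -0.03 and an adjusted p of 0.782 (limma). Its 3 libraries with 4-OHT were all below the 3 with vehicle. edgeR on whole reads called 0 members and DESeq2 called Heyl (log2 -1.16, adjusted p = 0.0206), and over all alternatives its adjusted p ran from 0.0206 to 1. The groups also did not overlap in Notch1, lower with 4-OHT, and in Rbpj, higher with 4-OHT, so in 3 of 8 members, against 10.8% of tested genes. Their adjusted p-values were 0.809 and 0.918 (limma). The 95% interval for Hes1 was -0.78 to 0.38 and that for Notch2 -0.25 to 0.28.

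TFEB cells were compared with vector cells in vehicle. In both comparisons of the lines, an effect of the fusion cannot be told apart from other differences between the lines. The comparison in vehicle shares the TFEB vehicle libraries with the one that chose Heyl, so Heyl is described only, and 7 members were tested. Dtx1 was called lower, at 123 ± 58.8 normalized counts in TFEB cells, against 294 ± 37.6 in vector cells (SD, n = 3 each). The log2 difference was -1.35 ± 0.29 (SE, adjusted p = 0.00314, limma), in all 3 libraries, and the adjusted p exceeded the threshold only without the variance trend (0.0903) among the alternatives tried. With 1 of 7 members called, 5.38% of all tested genes were called. Hes1 was 422 ± 144 in TFEB cells and 218 ± 12.2 in vector cells, a log2 difference of 0.90 ± 0.28 that missed the threshold in limma (adjusted p = 0.0606). Hes1 passed in edgeR (adjusted p = 0.0326), DESeq2 (0.00786) and 8 further alternatives, and missed in 15 of 25. Of the 8, the fit without the 3 libraries with scattered reads (0.0498, limma) was chosen after seeing the data. Over all alternatives the adjusted p of Hes1 was 0.00786 to 0.287. Single libraries whose absence brought it under the threshold were vector 4-OHT 1 and 3 (0.0479 and 0.0467) and TFEB 4-OHT 1 and 2 (0.0378 and 0.0453), none of which is in the comparison itself.

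Notch1 was 1071 ± 201 in TFEB cells and 1302 ± 59.2 in vector cells, both with vehicle (log2 -0.30 ± 0.12, adjusted p = 0.173, limma), and did not pass, although the groups did not overlap. Among the 7 tested members the groups did not overlap in 3 (Dtx1, Hes1 and Notch1), against 21.6% of tested genes. Heyl was at 196 ± 36.1 in TFEB cells, against 356 ± 137 in vector cells, with no overlap. The remaining members, Notch2, Rbpj, Hey1 and Nrarp, overlapped between the lines.

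With 4-OHT in both lines, the log2 differences of TFEB against vector cells were -5.93 ± 0.53 (SE) for Heyl, -1.22 ± 0.28 for Hes1, -1.13 ± 0.29 for Dtx1, -0.59 ± 0.12 for Notch1, -0.37 ± 0.10 for Rbpj, 0.53 ± 0.13 for Notch2 and -0.11 ± 0.35 for Nrarp. The Heyl value was -3.74 with a pseudocount of 10 and -6.81 without TFEB 4-OHT library 2. This comparison shares its TFEB 4-OHT libraries with the one that chose Heyl and is a description. The fit called 6 of the 8 members in it, against 27.1% of tested genes, and 6 did not overlap, against 39.1%. The difference between the 4-OHT effects of the lines, also a description, was -5.12 ± 0.75 for Heyl, -2.11 ± 0.40 for Hes1, -0.49 ± 0.15 for Rbpj, -0.29 ± 0.17 for Notch1, 0.58 ± 0.18 for Notch2 and 0.22 ± 0.41 for Dtx1. For Heyl it was -2.96 with a pseudocount of 10 and -6.002 without TFEB 4-OHT library 2. The fit called 4 of the 8 members in it, against 15.8% of tested genes. Both comparisons contain libraries on which Heyl was chosen, so nothing is read from the member counts of either.

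**Figure D2:**
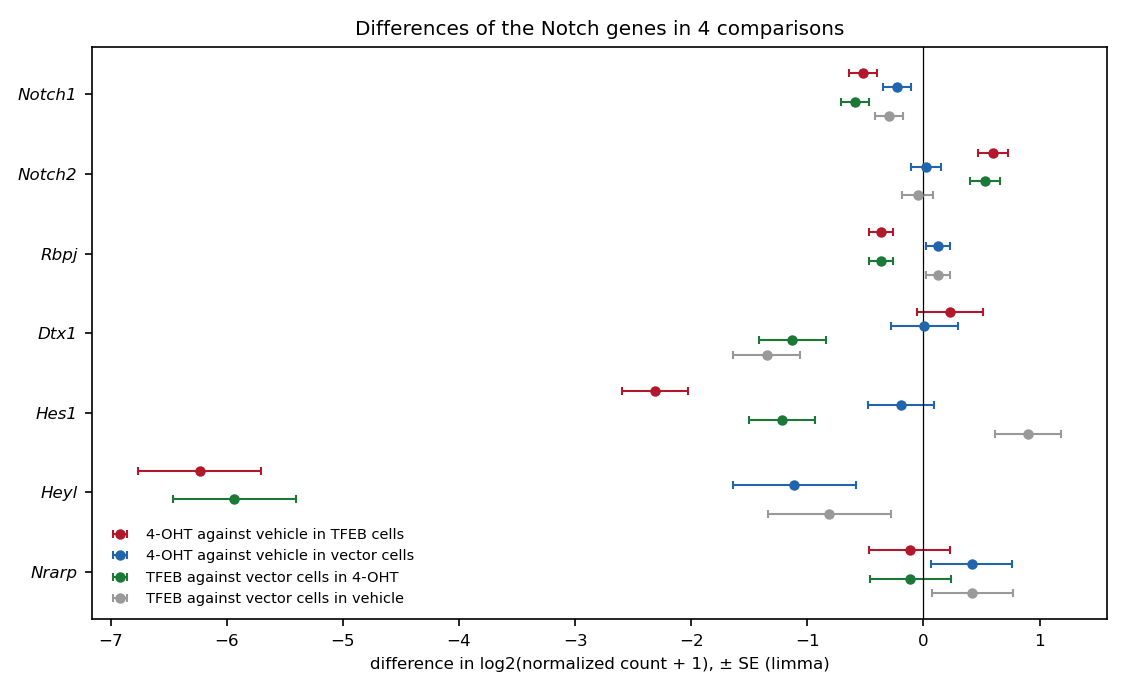
Differences of 7 members (Hey1 left out as close to silent) on the log2(normalized count + 1) scale (x axis), with whiskers of 1 SE from limma, in 4 comparisons given by colour. Heyl and Hes1 lie far below 0 in both comparisons with TFEB 4-OHT libraries on top, Notch2 lies above 0 in the same ones, and Dtx1 lies below 0 in both comparisons of the lines.

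The rest of the pathway was taken as a list of 68 further genes by role, of which 60 passed the filter. The list was drawn up with earlier results of these data known, so its genes are not an independent choice. The 8 that did not (Neurl1a, Neurl1b, Hes2, Hes3, Hes5, Hes7, Hey2 and Ptcra) reached 6.45 to 31 normalized counts in their highest library. With 4-OHT in TFEB cells 11 of the 60 rose and 8 fell (limma), against 13.7% and 13.9% of all tested genes. That is a share of the list close to the background, and the median log2 difference was 0.10, against 0.04 over all tested genes.

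Of 10 receptor cleavage genes, 4 rose and 1 fell in TFEB cells with 4-OHT, against 13.7% and 13.9% of all tested genes. The roles were not tested as sets. Furin, which makes the first cut during receptor maturation, had 1208, 1265 and 1149 normalized counts in TFEB cells with 4-OHT, against 493, 303 and 372 with vehicle (log2 1.66 ± 0.18 SE, adjusted p = 1.25e-08, limma). Adam10, the protease of the ligand-induced cut, had 8139, 7904 and 7472 with 4-OHT, against 4314, 5359 and 4273 with vehicle (log2 0.76 ± 0.09 SE, adjusted p = 3.33e-08, limma). Both were higher in all 3 TFEB libraries with 4-OHT than in any other library.

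The gamma-secretase genes, whose complex releases the intracellular part, differed in direction. Ncstn, its substrate-binding subunit, rose in TFEB cells with 4-OHT, at 1347, 1335 and 1225 normalized counts, against 815, 765 and 798 with vehicle (log2 0.72 ± 0.11 SE, adjusted p = 8.92e-06, limma). Aph1b, a scaffold subunit, fell to 141, 138 and 116, against 469, 442 and 503 with vehicle (log2 -1.83 ± 0.20 SE, adjusted p = 1.61e-08, limma). Aph1c, a near-identical copy whose reads may be exchanged with those of Aph1b, had at most 62.0 in any library. Adam17, an alternative protease named after its values were seen, rose by 0.29 ± 0.10 (adjusted p = 0.0342, limma). The difference between the 4-OHT effects of the lines was not called for Adam17 (adjusted p = 0.624, limma).

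Of the 8 other genes of the nuclear complex, 3 fell and 2 rose, against 13.9% and 13.7% of all tested genes. The 3 that fell in TFEB cells with 4-OHT were the Mastermind-like coactivators. Maml2 had 268, 243 and 344 normalized counts with 4-OHT, against 490, 495 and 558 with vehicle (log2 -0.86 ± 0.18 SE, adjusted p = 0.000344, limma). Maml1 differed by -0.53 ± 0.12 and Maml3 by -0.37 ± 0.11, and the call of Maml3 (adjusted p = 0.014, limma) was lost without TFEB vehicle library 1 (0.0784) or the second TFEB 4-OHT library (0.0924), and its adjusted p was 0.0031 to 0.0924 over all alternatives. The acetyltransferase gene Ep300 rose by 0.31 ± 0.08, as did its relative Crebbp, named after its values were seen, by 0.30 ± 0.08. Between TFEB and vector cells with 4-OHT, Maml1, Maml2 and Maml3 were not called (adjusted p = 0.1115, 0.0678 and 0.717, limma). Ep300 and Crebbp were called higher there. The difference between the 4-OHT effects of the lines was called for Maml2 (adjusted p = 0.0278, limma). It was not called for Maml1 (0.157), Maml3 (0.163), Ep300 (0.0779) or Crebbp (0.144).

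Of the 11 corepressor genes, Tle3 rose by 0.59 ± 0.08 (adjusted p = 1.33e-06, limma), at 4179, 4075 and 3683 normalized counts with 4-OHT, against 2620, 2736 and 2549 with vehicle in TFEB cells. Tle1, also a Groucho-type corepressor, fell by 0.37 ± 0.14 (adjusted p = 0.0409, limma), a call lost in 9 of 25 alternatives (adjusted p up to 0.217, from 0.0111), among them those without TFEB vehicle library 1 (0.0752) or 2 (0.217) and without TFEB 4-OHT library 1 (0.0773), 2 (0.104) or 3 (0.0811). The difference between the 4-OHT effects of the lines was not called for Tle1 (adjusted p = 0.7996, limma). Lfng, which modifies receptor sugars, fell to 502, 523 and 546, against 909, 799 and 763 with vehicle (log2 -0.65 ± 0.12 SE, adjusted p = 0.000111, limma). The 5 ligand genes did not pass, with unadjusted p-values of 0.057 to 0.797 (limma).

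**Figure D3:**
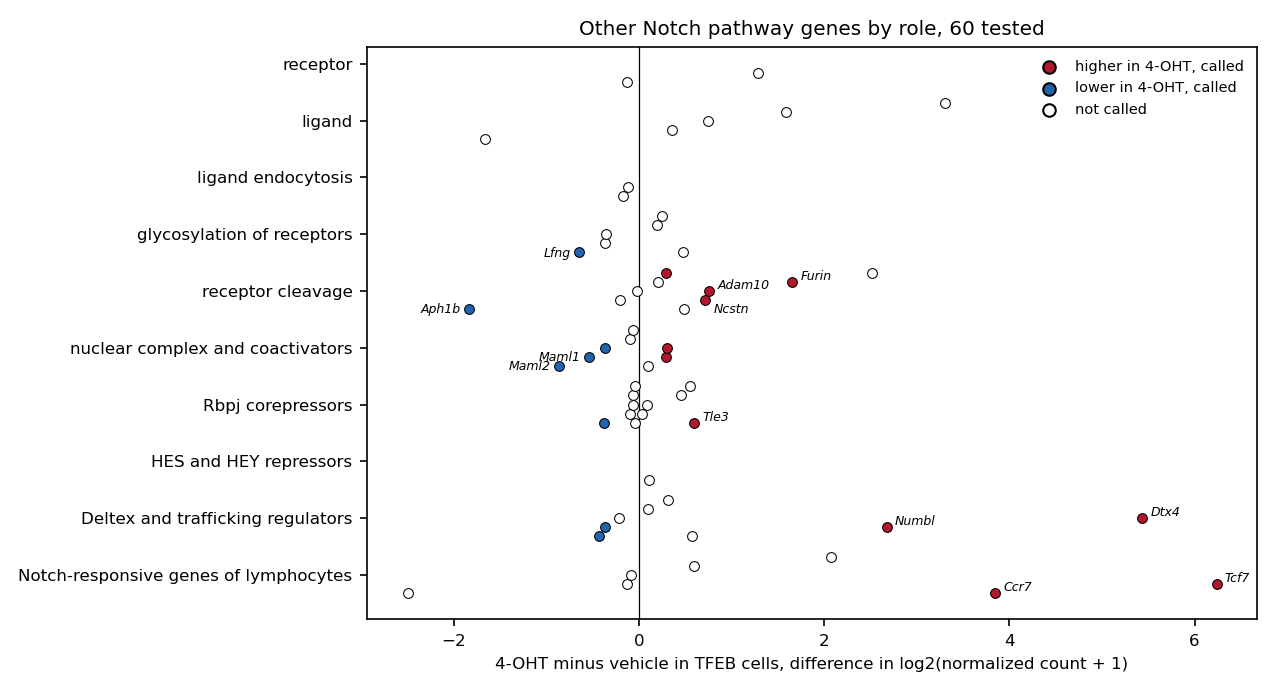
Log2 differences of 4-OHT against vehicle in TFEB cells (x axis) for the 60 tested pathway genes that are not members, by role (rows). Filled points passed an adjusted p of 0.05 in limma, and names mark called genes beyond 0.5 on the log2 scale. Tcf7, Dtx4, Ccr7 and Numbl lie farthest to the right and Aph1b farthest to the left among called genes.

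Among regulators of receptor turnover, Numbl, a homologue of the inhibitor Numb, had 284, 188 and 129 normalized counts in TFEB cells with 4-OHT, against 35.1, 16 and 42.9 with vehicle (log2 2.67 ± 0.58 SE, adjusted p = 0.000602, limma). Fbxw7, the substrate receptor of the ligase that degrades intracellular Notch, fell by 0.43 ± 0.09, and Dtx3l, a Deltex relative, fell by 0.37 ± 0.08. The difference between the 4-OHT effects of the lines was called for Fbxw7 (adjusted p = 0.00327, limma) and not for Dtx3l (0.101). Dtx4, at 104, 138 and 80.5 with 4-OHT and 13.7, 0 and 0 with vehicle in TFEB cells, was also called higher and is named after its values were seen. It passed the filter on low values only through the TFEB 4-OHT libraries, where it is high, so the call adds no support to the count.

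Of the 7 tested genes known as Notch-responsive in lymphocytes, 2 rose in TFEB cells with 4-OHT, against 13.7% of all tested genes. Il2ra did not pass, at 2822 to 3016 normalized counts with 4-OHT and 2707 to 3524 with vehicle (log2 -0.081 ± 0.101 SE, adjusted p = 0.654, limma). Gata3, Bcl11b, Cr2 and Igf1r did not pass either, with at most 85.7 normalized counts in any library. Tcf7, which encodes the transcription factor TCF-1, had 1430, 1367 and 1131 normalized counts in TFEB cells with 4-OHT, against 17.1, 25.6 and 9.68 in TFEB cells with vehicle (log2 6.24 ± 0.53 SE, adjusted p = 5.82e-11, limma). Its vector libraries had 7.51, 10.7 and 6.76 with 4-OHT and 12.5, 11 and 23.5 with vehicle. Ccr7, a chemokine receptor that guides lymphocytes to lymph nodes, had 2204, 2070 and 2018 in TFEB cells with 4-OHT, against 156, 141 and 137 with vehicle (log2 3.85 ± 0.19 SE, adjusted p = 1.75e-16, limma). Its vector libraries had 155, 229 and 162 with 4-OHT and 162, 235 and 224 with vehicle. Both thus lay in the opposite direction to Heyl and Hes1. The T cell markers Cd3e, Cd3d and Cd3g had at most 24.5 in any library, and the sum of 7 T cell markers, mostly Lck, was 562 to 718 with 4-OHT and 419 to 765 with vehicle in TFEB cells. Cd5, another marker of that list, had 82.9, 106 and 132 with 4-OHT, against 14.6, 6.40 and 33.2 with vehicle, and did not pass (adjusted p = 0.0749, limma). The part of these genes in the rise of Tcf7 and Ccr7 was not tested. Ptcra, another Notch target of T cell precursors, had at most 6.45.

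**Figure D4:**
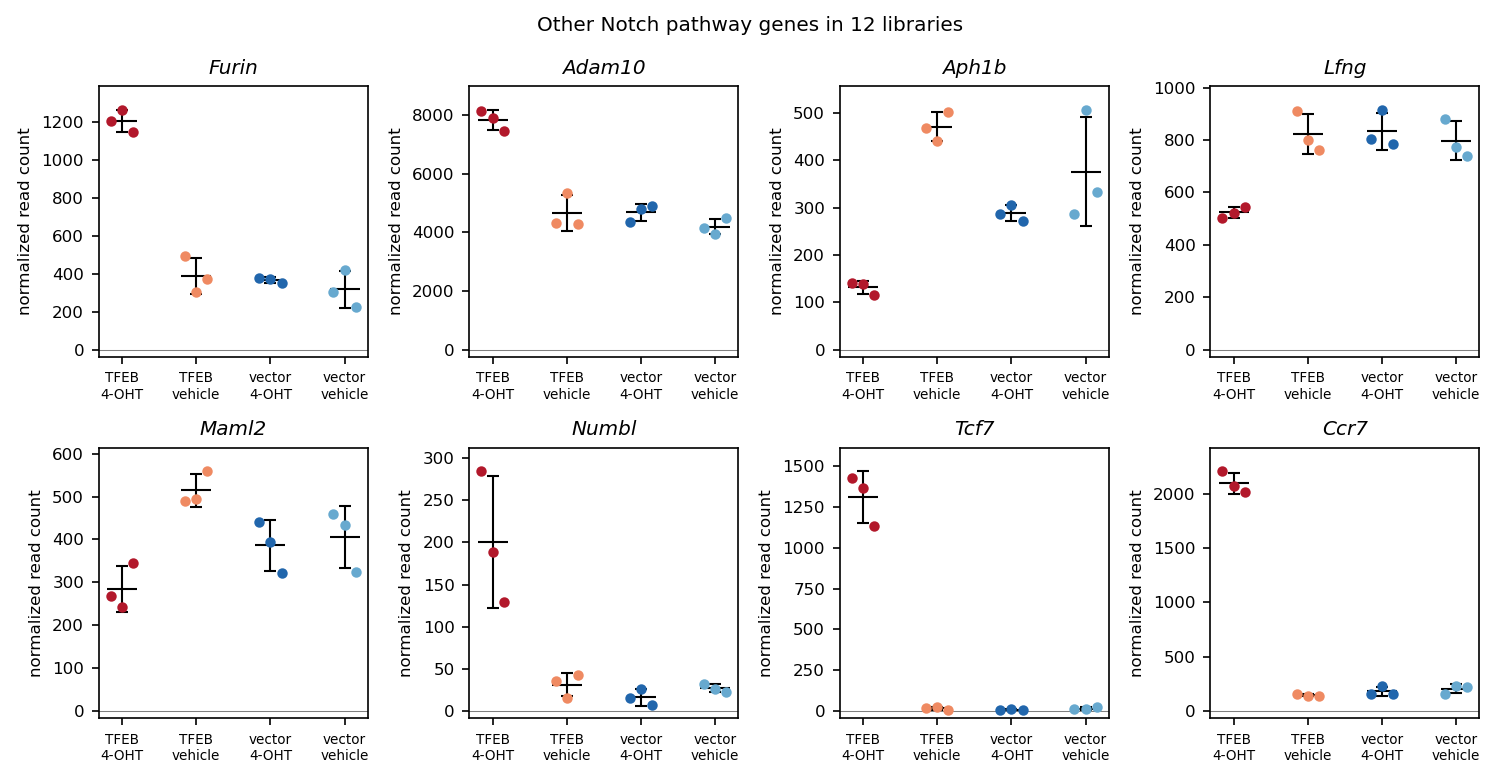
Normalized read counts (y axis, starting below 0, with a line at 0) of 8 other pathway genes in each of 12 libraries, by group (x axis). The mean and SD of 3 libraries are marked. Furin, Adam10, Numbl, Tcf7 and Ccr7 are highest in TFEB cells with 4-OHT, where Aph1b and Lfng are lowest.

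In vector cells with 4-OHT, limma called 0 of the 60 genes, against 0.0153% of all tested genes. edgeR and DESeq2 also called 0 of the 60, against 0 and 48 over all genes. In limma 2 of the 60 had an unadjusted p under 0.05. The effect of 4-OHT differed between the lines for 11 of the 60, 7 higher and 4 lower in TFEB cells, against 7.75% and 8.01% of all tested genes. Between TFEB and vector cells in vehicle 4 of the 60 were called, against 2.89% of tested genes higher and 2.49% lower. Dtx3, a second Deltex relative, was lower, at 66.8, 60.8 and 30.4 normalized counts in TFEB cells, against 217, 197 and 138 in vector cells (log2 -1.84 ± 0.42 SE, adjusted p = 0.00548, limma). In TFEB cells Mib1, a ligase of ligand endocytosis, was higher by 0.31 ± 0.08. Il2ra, the interleukin-2 receptor alpha chain, was higher by 0.44 ± 0.10, and Hes6 was lower by 0.46 ± 0.14. All 4 calls were lost in some alternatives, with adjusted p-values of 0.000212 to 0.109 for Dtx3, lost without a variance trend, 0.00023 to 0.0804 for Mib1, 0.000186 to 0.139 for Il2ra and 0.0141 to 0.247 for Hes6. Single libraries whose absence ended the call were vector vehicle 2 and 3 and TFEB vehicle 1 for Mib1 (0.0574, 0.0687 and 0.0626), vector vehicle 1 and TFEB vehicle 3 for Il2ra (0.0598 and 0.0583), and vector vehicle 2 and 3, TFEB vehicle 1 and 2 and TFEB 4-OHT 3 for Hes6 (0.14, 0.247, 0.0634, 0.209 and 0.0544).

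Between TFEB and vector cells with 4-OHT 15 of the 60 were called higher and 7 lower, against 13.6% and 13.5% of all tested genes. Besides Tcf7 (log2 7.15 ± 0.53 SE), Ccr7 (3.54 ± 0.19), Numbl (3.64 ± 0.58) and Furin (1.71 ± 0.18), these included 2 ligand genes, named after their values were seen. Jag2 had 74.2, 95.5 and 91.2 normalized counts in TFEB cells with 4-OHT, against 9.66, 46.3 and 6.76 in vector cells with 4-OHT. Dll1 had 16.1, 37.4 and 19.4 in TFEB cells with 4-OHT and was at 0 in all 6 vector libraries. Dll1 passed the filter on low values only through the group where it is high, so its call is no support either. Both comparisons of the lines and the 4-OHT comparisons share libraries.

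Over 9054 candidates averaging 50 or more normalized counts, the 5 most like Heyl over the 12 libraries were Tmem173 (Pearson r = 0.988 of log2 values), Ifitm1 (0.985), Ctnna1 (0.983), Cacna1e (0.979) and Gbp2 (0.977). Ifitm1, an interferon-induced membrane protein gene, averaged 16.6 ± 10.2 normalized counts in TFEB cells with 4-OHT, 138 ± 17.3 in TFEB cells with vehicle, 135 ± 45.8 in vector cells with 4-OHT and 180 ± 44.2 in vector cells with vehicle. The calcium channel gene Cacna1e averaged 63.8 ± 17.5, 511 ± 60.3, 533 ± 177 and 887 ± 70.6 in the same groups. The genes most like Hes1 were Dhx57 (0.98), Clcn3 (0.965), Ets1 (0.964), Atp11b (0.964) and Me2 (0.958). Clcn3, which encodes an endosomal chloride and proton exchanger, averaged 1831 ± 252 in TFEB cells with 4-OHT, 4040 ± 440 in TFEB cells with vehicle, 2609 ± 245 in vector cells with 4-OHT and 2873 ± 99.6 in vector cells with vehicle. These likenesses rest on libraries that fall into groups and are given as a description.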

How the data were processed

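Per the labels' protocols, a NuGEN Ovation kit for mouse turned total RNA into RNA-seq libraries. The authors deposited normalized read counts, a signal per gene and library whose values behave as read counts divided by 1 factor per library. The submitters' processing notes name mm10 and the tools DESeq2 1.6.3, HTSeq 0.6.1 and STAR 2.5.3. What each tool did, the annotation, any filter and the use of strand were not found there, so reads of genes overlapping on opposite strands, as at Notch1 and Nrarp, cannot be told apart. Whole reads were recovered, since 100% of the values in the 12 libraries were whole numbers of reads to within 0.001. Libraries held 11849029 to 22109283 reads, and 3 reads are 2.21 to 4.15 normalized counts. Floors cover counting error only.

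From the deposited values log2(value + 1) was taken, and a gene was kept if it reached 10 in 3 or more libraries. limma 3.58.1 under R 4.3.3 used the 12 libraries together, with a mean for each group and a variance trend, in 5 comparisons, with Benjamini-Hochberg adjustment over 13111 genes and a threshold of 0.05. The procedure was tested on simulated data. edgeR 4.0.16 and DESeq2 1.42.0 on whole reads, other pseudocounts, filters, scalings, a replicate block and fits without each library were alternatives. Libraries of a group differed beyond sampling noise (chi-square over its degrees of freedom 7.88 to 25.5). The members, the list of 76 pathway genes and the markers were chosen with earlier results of these data known. Named genes are the 8 members, then called list genes with a mean of at least 50, up to 4 per role in TFEB cells with 4-OHT and up to 4 in each other comparison, and the 5 genes most like Heyl and Hes1. Gene positions and exon lengths come from GENCODE vM21, promoter sequences from RefSeq. The values of 1 marker gene are not reported here.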

Additional observations from a re-analysis of the deposited data

Results flagged for a closer look

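The effect of 4-OHT differed between TFEB and vector cells for 11 of the 60 other pathway genes by the test of that difference itself, limma's interaction term. Of all tested genes 15.8% were called in it, so the share of the list is close to the background. The 4 largest differences among these 11, TFEB minus vector, were 7.03 ± 0.75 on the log2 scale for Tcf7 (SE, adjusted p = 1.78e-08, limma), 4.04 ± 0.27 for Ccr7 (7.18e-13), 3.53 ± 0.82 for Numbl (0.00228) and -1.49 ± 0.29 for Aph1b (0.000278). With 4-OHT, all 3 TFEB libraries of Tcf7, Ccr7 and Numbl lay above, and all 3 of Aph1b below, those of vector cells. The 4 genes were picked by size of difference in these same libraries, so this separation adds no support. Between the lines with 4-OHT, 39.1% of all tested genes did not overlap. Each call was kept under all 24 alternatives that gave a value.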

How the results depend on the processing

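Counts of the other pathway genes called stayed within 1.5 times of those reported under all alternatives except in TFEB against vector cells in vehicle. There the 4 calls became 2 with TMM scaling and 0 without a variance trend, and 2 to 4 when libraries were left out one by one. Over the same left-out libraries the counts were 16 to 21 for 4-OHT in TFEB cells, 0 to 0 in vector cells, 10 to 13 for the difference between lines and 16 to 22 for TFEB against vector cells in 4-OHT. Without the 3 libraries with scattered reads, an alternative chosen after seeing the data, the counts were 18, 0, 10, 3 and 17 in the order of the 5 comparisons. Differences near 0 that were not called changed sign: Notch2 in vector cells with TMM scaling (-0.005, from 0.02) and with libraries left out (range -0.121 to 0.144, below 0 without vector vehicle library 2 or vector 4-OHT library 3). Dtx1 in vector cells did so with TMM scaling (-0.016), with edgeR (-0.003) and with libraries left out (range -0.168 to 0.159, below 0 without vector vehicle library 2 or 3 or vector 4-OHT library 1). Notch2 in TFEB against vector cells in vehicle did so with array weights (0.066) and with libraries left out (range -0.161 to 0.052, above 0 without vector vehicle library 1 or TFEB vehicle library 2). The cause of these changes was not tested. Replicate numbers did not pair the libraries (correlation of same-numbered deviations -0.54 to 0.67, and 4 of 12 libraries correlated best with their own number). With a replicate block 20, 0, 11, 4 and 21 genes were called. DESeq2 called 21, 0, 16, 6 and 21, and over all genes 48 in vector cells and 1224 in TFEB against vector cells in vehicle, against 2 and 705 in limma. Depth limits what can be said of Hey1, Notch3, Notch4, Dll1, Dll3, Dll4, Jag1, Gata3, Bcl11b, Cr2 and Igf1r, which had few reads in most libraries.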
